A study of Mus musculus with 6 samples.

Results

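The genes described here encode the enzymes that build cholesterol and fatty acids, together with the proteins that regulate them. They were found on the array by platform gene symbol, using probe sets with exactly 1 symbol and, for each gene, the probe set with the highest mean over the 6 arrays. Of 32 listed genes, 31 were measured, among 18193 genes in all. They comprised 18 sterol enzymes, 6 regulators with the sterol carrier Stard4, and 7 fatty acid genes. The remaining gene, Acat2, which encodes an acetoacetyl-CoA thiolase, had no probe set with 1 symbol and was not analysed here. The rule that finds a gene's probe set did not use the difference between the groups.

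The study compared 3 mutant mice with 3 control littermates at 7 months of age. The mutants lacked Hnf4a, a nuclear receptor gene active in liver and gut, through a Cre driven by 12.4 kb of the Villin promoter, which is active in intestinal epithelium. All 6 animals carry the strain label B6.129X1(FVB)-Hnf4atm1.1Gonz/J, a line with a conditional Hnf4a allele, and the labels do not state whether the controls carried Cre. Every animal received ketamine (300 mg/kg) and xylazine (40 mg/kg) before it was killed, and RNA of its distal jejunum was hybridised to 1 Affymetrix array. The tissue was a biopsy of the whole wall, so the signal of a gene cannot separate the epithelium from other layers, and fewer cells of a type and less RNA per cell cannot be told apart.

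Cholesterol synthesis starts from acetyl-CoA, passes through mevalonate, farnesyl diphosphate, squalene and lanosterol, and is active in liver and small intestine. When sterol in the endoplasmic reticulum is low, Scap escorts the transcription factor SREBP-2, encoded by Srebf2, to the Golgi for cleavage, and SREBP-2 then raises transcription of nearly every enzyme of the pathway. When sterol is plentiful, Insig1 and Insig2 hold Scap back. SREBP-1c, from Srebf1, acts on the fatty acid genes, which turn citrate into palmitate, lengthen it and desaturate it, and which are abundant in fat tissue.

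SREBP proteins act at sterol regulatory elements, usually beside a CCAAT box bound by NF-Y. Windows of 250 bases before to 50 bases after RefSeq transcript starts (GRCm38.p6) were available for 26 of the 32 listed genes, 34 windows in all. The stretches shown here, chosen after the values were seen, are the 200 bases before the start of 4 sterol enzyme genes that were all highest in mutant 3 and of Fasn, which was highest in mutant 2. Each is given 5′ to 3′ on the strand of the gene, and capitals mark CCAAT on either strand and, in Hmgcs1, the sterol regulatory element.
Hmgcs1 (chr13:119690151-119690350, plus strand): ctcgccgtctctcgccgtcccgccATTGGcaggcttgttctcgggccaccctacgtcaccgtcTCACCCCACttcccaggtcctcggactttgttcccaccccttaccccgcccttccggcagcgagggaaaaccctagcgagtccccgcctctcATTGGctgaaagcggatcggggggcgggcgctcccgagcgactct
Idi1 (chr13:8885406-8885605, plus strand): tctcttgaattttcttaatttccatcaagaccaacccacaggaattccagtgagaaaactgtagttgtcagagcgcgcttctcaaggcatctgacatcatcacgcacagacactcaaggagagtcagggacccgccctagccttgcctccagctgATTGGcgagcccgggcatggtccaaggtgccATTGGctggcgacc
Lss (chr10:76531405-76531604, plus strand): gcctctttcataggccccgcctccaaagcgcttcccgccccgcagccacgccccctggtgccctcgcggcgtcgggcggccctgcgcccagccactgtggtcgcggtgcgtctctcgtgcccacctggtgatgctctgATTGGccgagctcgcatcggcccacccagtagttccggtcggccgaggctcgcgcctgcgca
Cyp51 (chr5:4104698-4104897, minus strand): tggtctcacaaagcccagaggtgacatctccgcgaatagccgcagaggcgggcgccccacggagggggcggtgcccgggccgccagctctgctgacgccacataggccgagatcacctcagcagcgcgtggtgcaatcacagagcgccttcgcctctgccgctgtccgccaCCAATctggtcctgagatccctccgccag
Fasn (chr11:120824548-120824747, minus strand): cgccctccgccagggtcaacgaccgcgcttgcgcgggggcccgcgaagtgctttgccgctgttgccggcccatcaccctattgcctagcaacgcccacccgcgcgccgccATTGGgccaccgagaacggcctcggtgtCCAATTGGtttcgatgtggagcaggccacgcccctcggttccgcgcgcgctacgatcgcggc
The element searched for was TCACNCCAC on either strand, and among the 26 genes it was found in 1, Hmgcs1, where it began 137 bases before the start. Of all 32851 windows, 1.24% held it. CCAAT on either strand was found in 15 of the 16 sterol enzyme genes with a window, the exception being Acat2, and in 15 of their 19 windows. It was found in 37.4% of all windows and, counted per gene, in 41.1% of all genes with a window. Among the fatty acid genes 2 of 5 held it, Fasn and Acly, and among the regulators 4 of 5 did. The E-box CACGTG, to which SREBP proteins and clock factors can both bind, was found in 3 of 16 sterol enzyme genes (Hsd17b7, Dhcr7 and Sc5d). It was also in 2 of 5 regulators (Insig1 and Scap) and 0 of 5 fatty acid genes. It was found in 7.15% of all windows and, counted per gene, in 8.09% of all genes with a window. The HNF4 element CAAAGTCCA was in 0 of the 34 windows and in 0.475% of all windows. These are matches of letters in short windows and say nothing of binding.

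Signals are the deposited log2 values, and 1 unit is a doubling. Array medians over all probe sets lay between 3.93 and 3.98. The defining genes of absorptive enterocytes were bright on every array. Their 11 measured markers averaged 12.59, 12.52 and 12.66 in the controls and 12.20, 12.46 and 12.28 in the mutants, lower in every mutant. Of these markers 0 stood above their control mean and 11 below, whereas 46.7% of all genes stood above. In limma's moderated test 0 of the 11 had an adjusted p under 0.05. Hnf4a itself read 11.82, 11.76 and 11.57 in the controls and 8.83, 8.83 and 9.82 in the mutants, always in the order of animals 1, 2 and 3, and differed by -2.56 ± 0.25 SE (limma's moderated test, adjusted p = 0.00756). Markers of other tissues stood apart on 2 arrays. The 9 measured pancreatic acinar markers averaged 7.78 in control 3 against at most 4.71 elsewhere, and the 10 measured fat cell markers averaged 7.78 in mutant 2 against at most 6.54 elsewhere. The 3 measured Y-linked genes averaged 5.54 in control 1 and 5.62 in mutant 3 against at most 2.70 in the other animals, so these were the male of each group. The 8 measured T cell markers averaged 6.50, 5.42 and 5.95 in the controls and 6.34, 6.86 and 6.57 in the mutants, lowest in control 2.

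No cholesterol or fatty acid synthesis gene differed between mutants and controls by limma's moderated test with Benjamini-Hochberg adjustment over all genes, in which 0 of 31 passed at an adjusted p under 0.05. Over all 18193 genes 96 passed, or 0.528%. At an unadjusted p under 0.05 there were 2 of 31, Stard4 (lower) and Lpin1 (higher), against 12.1% of all genes. The 3 mutants lay wholly above the controls in 1 gene, Ggps1, and wholly below them in 2, Stard4 and Srebf1. That made 3 of 31 without overlap, against 17.1% of all genes. Adjusted p ran from 0.190 for Stard4 to 0.996 for Elovl6. On average 25 of the 31 genes stood above their control mean and 6 below, whereas 46.7% of all genes stood above. The median change was 0.21 for sterol enzymes, -0.02 for regulators, 0.41 for fatty acid genes and -0.01 for all genes.

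**Figure D1:**
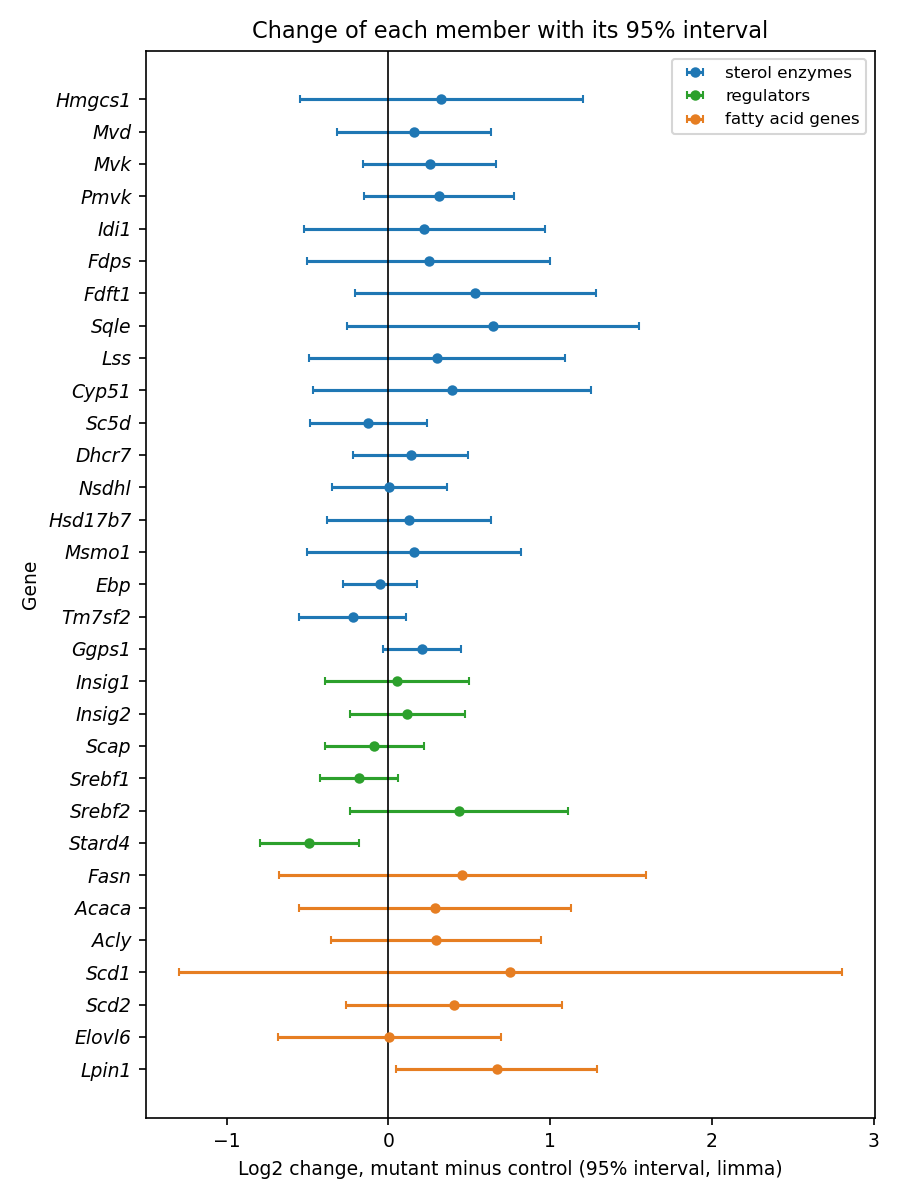
Log2 change (mutant minus control, x axis) of each of the 31 measured genes (y axis), coloured by list, with the 95% interval from limma as a bar. All intervals but those of Stard4 and Lpin1 include 0, and that of Scd1 runs from -1.29 to 2.80.

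The intervals in this plot were wide. Standard errors in these 31 genes had a median of 0.27 on the log2 scale, against 0.13 over all genes. The width came from differences between animals of the same group, which the rest of the text follows. Each gene's range over the 6 arrays had a median of 0.95 among sterol enzymes and 1.43 among fatty acid genes, against 0.44 over all genes.

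**Figure D2:**
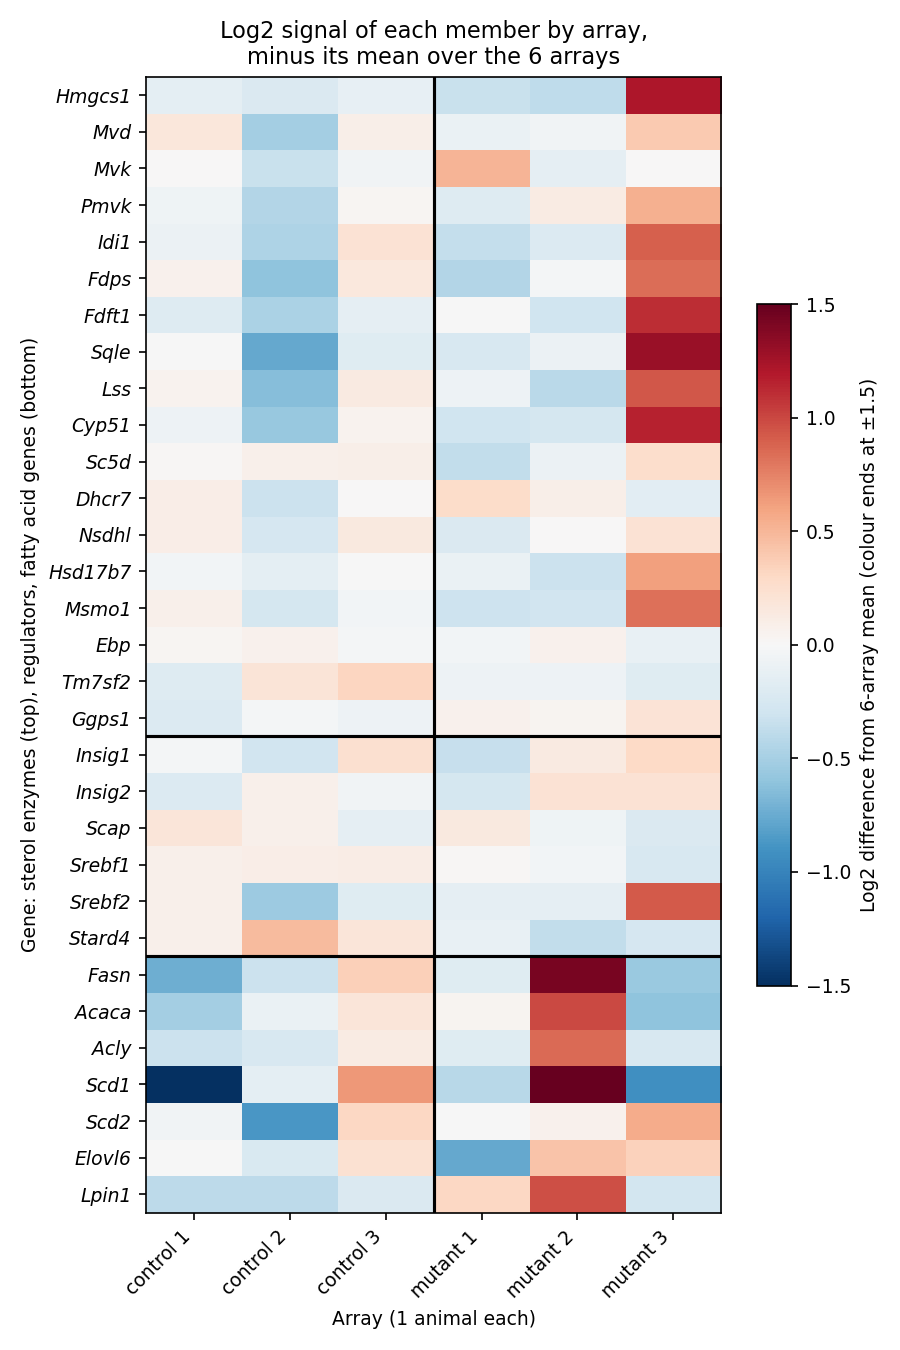
Log2 signal of each gene (rows, in the order sterol enzymes, regulators, fatty acid genes) on each array (columns), as the difference from its mean over the 6 arrays. Most sterol enzymes are at their highest in mutant 3 and many at their lowest in control 2, while 6 of 7 fatty acid genes are at their highest in mutant 2. The colour ends at 1.5, and Scd1 exceeds it in control 1 and mutant 2.

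The sterol enzymes as a group were high in 1 mutant, mutant 3. Their mean over 18 genes was 7.86, 7.57 and 7.92 in the controls and 7.75, 7.75 and 8.44 in the mutants, which gave a control mean of 7.78 ± 0.19 (SD, n = 3) and a mutant mean of 7.98 ± 0.40 (SD, n = 3). The groups overlapped, since mutants 1 and 2 lay between control 2 and the other controls. The difference of 0.20 was smaller than the spread among mutants, and without mutant 3 it was -0.03. Without control 2, the lowest animal, it was 0.09. Between 0.24 and 0.32 remained when any of the other 4 arrays was left out. In mutant 3 itself the mean lay 0.69 above that of mutants 1 and 2. Of the 2 males, control 1 read 7.86 and mutant 3 read 8.44.

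**Figure D3:**
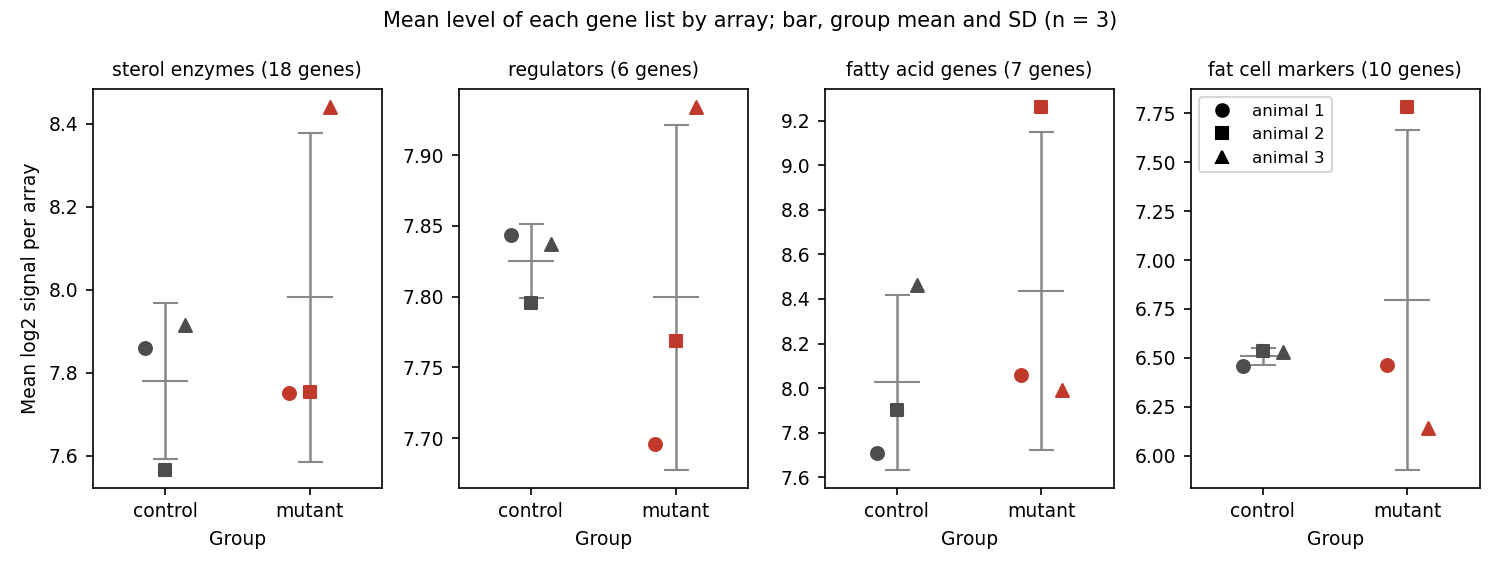
Mean log2 signal per array (y axis) of the 18 sterol enzymes, 6 regulators, 7 fatty acid genes and 10 fat cell markers in controls and mutants (x axis), with symbols for animals 1, 2 and 3 and bars for the group mean and SD. Mutant 3 is highest for sterol enzymes at 8.44, and mutant 2 is highest for fatty acid genes at 9.26 and for fat cell markers at 7.78. The y axes differ between panels and do not start at 0.

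On the first steps, from acetyl-CoA to isopentenyl units, the genes at both ends were high in mutant 3 and Mvk was not. Hmgcs1, which encodes the cytosolic HMG-CoA synthase, read 10.38, 10.31 and 10.40 in the controls and 10.19, 10.14 and 11.74 in the mutants. Mutant 3 stood 2.73-fold above the mean of the other 5 arrays, while mutants 1 and 2 lay just under every control. The group difference was 0.33 ± 0.38 SE (adjusted p = 0.810), and without mutant 3 it was -0.20. Idi1, whose isomerase makes dimethylallyl diphosphate, read 8.61, 8.24 and 8.92 in the controls and 8.34, 8.50 and 9.60 in the mutants. Mutant 3 was the highest here too, and control 2 the lowest. The 3 genes between them on the pathway varied less. The mevalonate kinase gene Mvk differed by 0.25 ± 0.18 SE, the phosphomevalonate kinase gene Pmvk by 0.31 ± 0.20 SE and the decarboxylase gene Mvd by 0.16 ± 0.21 SE. Mvk was highest in mutant 1, at 7.09 against 6.59 in mutant 3, so it did not share the pattern of Hmgcs1, whereas Pmvk and Mvd were highest in mutant 3 at 7.46 and 6.94.

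The pattern was seen again at the branch point and on the way to the first sterol. Fdps, the gene of farnesyl diphosphate synthase, read 8.25, 7.58 and 8.33 in the controls and 7.73, 8.15 and 9.01 in the mutants. Fdft1, which encodes squalene synthase, read 8.23, 7.96 and 8.30 in the controls and 8.43, 8.13 and 9.54 in the mutants. For Sqle, the gene of squalene epoxidase, a rate-limiting oxygenase, the values were 8.26, 7.50 and 8.08 in the controls and 8.03, 8.18 and 9.57 in the mutants. Mutant 3 was the highest array for each of these, by 1.31 over the next highest array for Sqle and by 1.11 for Fdft1. Sqle had the largest group difference of the sterol enzymes, 0.64 ± 0.39 SE, with an interval from -0.26 to 1.55 (adjusted p = 0.587). Without mutant 3 the difference was 0.16, smaller than the 0.31 of Mvk, and that of Fdft1 went from 0.54 to 0.12. The value of Sqle in mutant 3, 2.95-fold above the mean of the other arrays, was a larger excess than in 99.7% of all genes. Lss, whose cyclase closes the ring to lanosterol, read 6.67, 5.98 and 6.76 in the controls and 6.54, 6.22 and 7.55 in the mutants, where mutant 2 lay below mutant 1 and below 2 of the 3 controls. Ggps1, which draws farnesyl diphosphate off towards geranylgeranyl groups and not towards sterol, read 5.77, 5.95 and 5.90 in the controls and 6.04, 6.02 and 6.19 in the mutants. All mutants were above all controls, but the difference was 0.21 ± 0.10 SE (adjusted p = 0.491). Its other 3 probe sets differed by 0.08, -0.20 and -0.30, so the direction of Ggps1 depended on the probe set.

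After lanosterol, part of the genes followed mutant 3 and part did not. Cyp51, the lanosterol demethylase gene, read 7.50, 7.01 and 7.63 in the controls and 7.27, 7.32 and 8.73 in the mutants, and mutant 3 was 2.61-fold above the mean of the others. Msmo1, which encodes the C4-methylsterol oxidase, read 8.94, 8.60 and 8.82 in the controls and 8.56, 8.59 and 9.70 in the mutants. Hsd17b7, for the 3-ketosteroid reductase, read 7.24, 7.15 and 7.28 in the controls and 7.19, 6.96 and 7.90 in the mutants. In these 3 genes mutant 3 lay above every control, while mutants 1 and 2 lay inside the range of the controls or just under it. Nsdhl, for the decarboxylating dehydrogenase of the same C4 demethylation, was highest in mutant 3 by a margin of 0.07, and Sc5d, for lathosterol oxidase, by 0.18. For Sc5d this held on 1 of 3 probe sets. Of the others, 1 was highest in control 3, and 1 read 6.66, 7.16 and 7.04 in the controls against 6.16, 6.43 and 6.64 in the mutants, all below the controls, a difference of -0.54 (unadjusted p = 0.0127 in limma's fit over probe sets, adjusted p = 0.307). The last reductase gene, Dhcr7, read 7.82, 7.40 and 7.72 in the controls and 7.99, 7.80 and 7.56 in the mutants, with mutant 3 the lowest of the mutants. Ebp, for the sterol isomerase, read 9.11, 9.14 and 9.05 in the controls and 9.04, 9.14 and 8.96 in the mutants, a range of 0.18 over all arrays. Tm7sf2, which encodes a C14 sterol reductase, read 7.04, 7.43 and 7.56 in the controls and 7.16, 7.15 and 7.05 in the mutants, and its mutant values lay inside the range of the controls. Dhcr7, Ebp and Tm7sf2 did not share the high values of Sqle and Cyp51 in mutant 3, where their differences from the mean of the other 5 arrays were -0.18, -0.13 and -0.22.

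Counted over the list, mutant 3 was the highest of the 6 arrays in 14 of 18 sterol enzymes, against 19.2% of all genes. Control 2 was the lowest in 11 of 18, against 14.2% of all genes. Mutant 3 exceeded the mean of the other arrays by over 1.5-fold in 10 of 18, against 3.52% of all genes. These counts were made after the values had been seen and describe 1 animal, not the genotype. Without mutant 3, 7 of the 18 enzymes stood above their control mean and 11 below, with a median change of -0.09. Other probe sets of the same genes repeated this in part. Of 24 further probe sets for 12 sterol enzymes, 10 lay on every array under that array's median over the 18193 genes (5.38 to 5.46), and mutant 3 was highest in 2 of them. Among the other 14, mutant 3 was highest in 9, and the exceptions were both further probe sets of Sc5d, 2 of Ggps1 and 1 of Mvk. The 3 further bright probe sets of Hmgcs1 read 10.83, 11.37 and 9.23 in mutant 3 against at most 9.82, 10.26 and 8.19 elsewhere, and a second one of Cyp51 read 6.97 against at most 5.30.

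**Figure D4:**
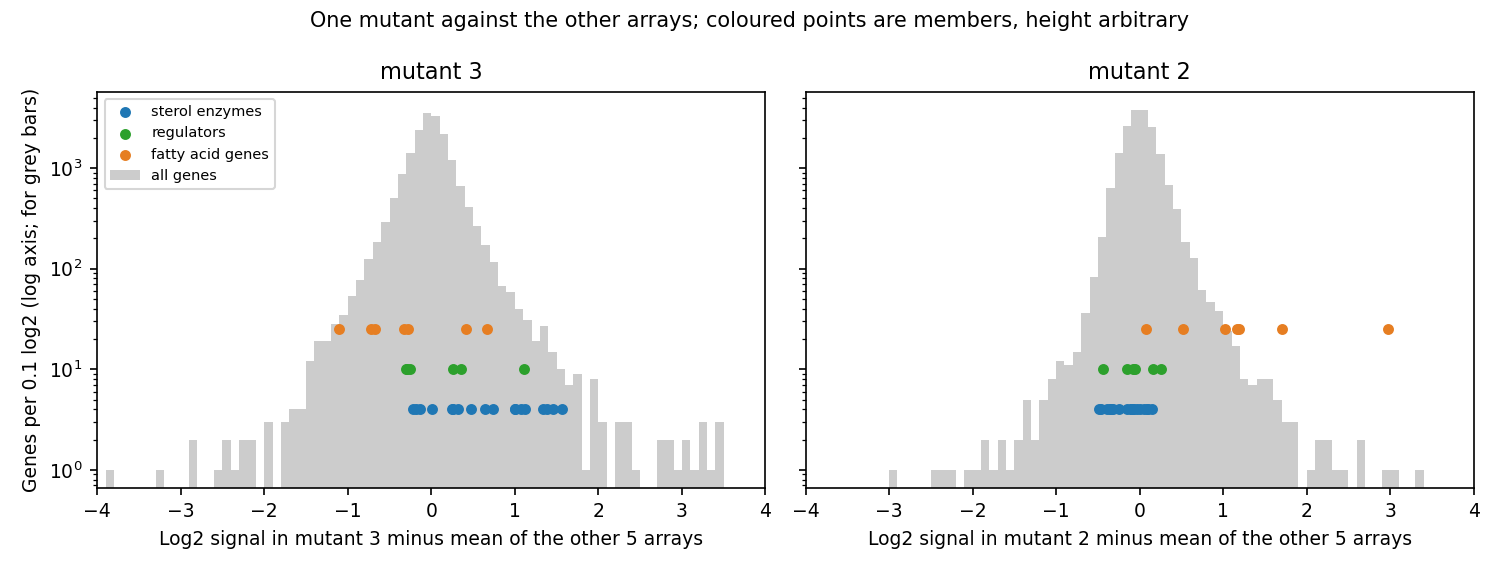
Log2 signal in mutant 3 (left) and mutant 2 (right) minus the mean of the other 5 arrays (x axis), as the number of genes per 0.1 log2 for all 18193 genes (grey, logarithmic y axis, genes beyond 4 not drawn) and as points for the members, whose height has no meaning. In all, 10 of the sterol enzymes lie beyond 1.5-fold in mutant 3. In mutant 2, 5 of the 7 fatty acid genes lie beyond 1.5-fold, with Scd1 at 2.97, while Scd2 lies near 0 at 0.08.

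Among the regulators, Srebf2 followed the sterol enzymes and Srebf1 did not. Srebf2, which is itself a SREBP-2 target, read 7.60, 6.97 and 7.33 in the controls and 7.38, 7.39 and 8.44 in the mutants, highest in mutant 3 and lowest in control 2. It differed by 0.44 ± 0.29 SE (adjusted p = 0.629), and by 0.08 without mutant 3. The second Srebf2 probe set did not repeat this, with 7.81, 7.28 and 7.31 in the controls and 7.73, 7.30 and 7.62 in the mutants, so the Srebf2 pattern rested on 1 of 2 probe sets. Srebf1 read 8.39, 8.42 and 8.43 in the controls and 8.33, 8.27 and 8.08 in the mutants, and every mutant lay below every control. The difference was -0.18 ± 0.10 SE (adjusted p = 0.555), and mutant 3 held the lowest value. Insig1, a classical sterol-responsive gene, read 6.51, 6.24 and 6.77 in the controls and 6.18, 6.66 and 6.82 in the mutants, so mutant 3 was highest by only 0.06. Insig2 differed by 0.12 ± 0.15 SE and Scap by -0.09 ± 0.13 SE, both with overlapping groups. On this probe set Insig2 was highest in mutant 3 by only 0.0038. The other 2 probe sets of Insig2 read 7.15 and 8.01 in mutant 3 against at most 6.84 and 7.62 elsewhere. The mean over the 6 regulators was 7.83 ± 0.03 (SD, n = 3) among the control animals against 7.80 ± 0.12 (SD, n = 3) among the mutants.

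Stard4 had the smallest p of the 31 genes and was lower in all mutants on each of its 3 probe sets, though it did not pass the test. Stard4 encodes a soluble carrier that moves cholesterol between membranes and is known as a SREBP-2 target. It read 9.48, 9.87 and 9.58 in the controls and 9.28, 9.03 and 9.15 in the mutants, and the groups did not overlap. The difference was -0.49 ± 0.13 SE, a 1.40-fold lower mean in mutants (unadjusted p = 0.00603, adjusted p = 0.190, interval -0.79 to -0.18). The other 2 probe sets differed by -0.55 and -0.53, and in both the mutants lay wholly below the controls. With all probe sets averaged the adjusted p was 0.0642, and over the other alternatives it ran from 0.122 to 0.679. On the brightest Stard4 probe set mutant 3, the highest animal for most sterol enzymes, was within the range of the other mutants. On 1 of the other probe sets it was the highest mutant, at 9.18 against 9.03 and 8.97.

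**Figure D5:**
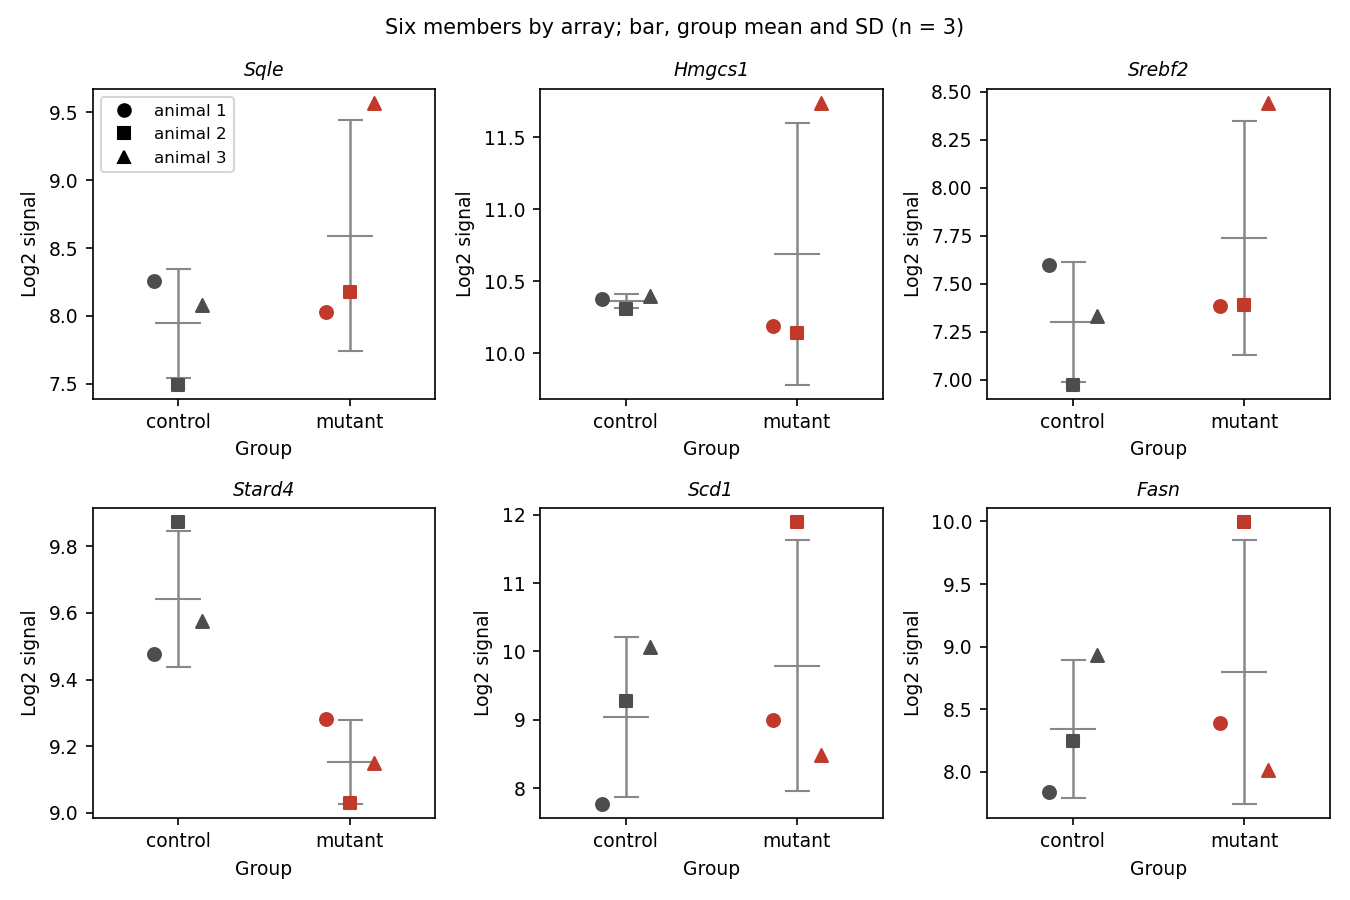
Log2 signal (y axis, not from 0, scales differ) of Sqle, Hmgcs1, Srebf2, Stard4, Scd1 and Fasn in controls and mutants (x axis), 1 symbol per animal, with bars for the group mean and SD. Mutant 3 is alone at the top for Sqle, Hmgcs1 and Srebf2, mutant 2 for Scd1 and Fasn, and for Stard4 all mutants are below all controls.

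The fatty acid genes were high in a different mutant, mutant 2. Their mean over 7 genes was 7.71, 7.90 and 8.46 in the controls and 8.06, 9.26 and 7.99 in the mutants, which gave 8.03 ± 0.39 (SD, n = 3) for the control animals against 8.44 ± 0.71 (SD, n = 3) for the mutants. Mutants 1 and 3 lay within the range of the controls. The difference of 0.41 was smaller than the spread among mutants and was -0.0016 without mutant 2. Without that animal 5 of the 7 genes stood below their control mean and 2 above. Leaving out control 3, mutant 1 or mutant 3 gave between 0.60 and 0.63, leaving out control 1 or control 2 gave 0.25 and 0.35, and without both control 3 and mutant 2 the difference was 0.22.

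Scd1, which encodes the stearoyl-CoA desaturase of liver and fat, had the widest range of the 31 genes. It read 7.77, 9.27 and 10.07 in the controls and 8.995, 11.89 and 8.49 in the mutants, from 7.77 to 11.9. Mutant 2 was 7.84-fold above the mean of the other arrays, and the group difference was 0.75 ± 0.89 SE (adjusted p = 0.815). Fasn, for fatty acid synthase, read 7.84, 8.25 and 8.93 in the controls and 8.39, 9.99 and 8.01 in the mutants. Acaca, for the acetyl-CoA carboxylase that feeds it, read 6.53, 6.95 and 7.22 in the controls and 7.08, 8.04 and 6.45 in the mutants. Acly, for the citrate lyase that supplies cytosolic acetyl-CoA to both pathways, read 8.62, 8.69 and 9.05 in the controls and 8.76, 9.79 and 8.70 in the mutants. For each of these 4 genes the highest array was mutant 2, the second was control 3, and the lowest was control 1 or mutant 3. Without mutant 2 the differences were -0.30 for Scd1, -0.14 for Fasn, -0.14 for Acaca and -0.06 for Acly, on the other side of 0 from those with all arrays. In mutant 2 the fat cell markers Adipoq, Fabp4, Retn and Car3 also stood highest, by 2.65, 2.28, 2.19 and 2.12 over the mean of the other arrays. Of the 10 measured fat markers 7 were over 1.5-fold above that mean in mutant 2, while leptin (Lep) read 2.76 to 3.31 on all arrays, below the array medians. In control 3, where the same genes ranked second, the fat markers averaged 6.53, no more than in control 2, and the acinar markers were high. The part of either tissue in these values was not tested.

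The other fatty acid genes shared this in part. Lpin1, which encodes a phosphatidate phosphatase of glycerolipid synthesis, read 6.13, 6.13 and 6.31 in the controls and 6.83, 7.49 and 6.25 in the mutants. Mutants 1 and 2 lay above all controls, and mutant 3 lay among them. The difference was 0.67 ± 0.27 SE (unadjusted p = 0.0386, adjusted p = 0.370), and without mutant 2 it was 0.35. A second probe set of Lpin1 differed by 0.59 (adjusted p = 0.443 over probe sets), with 6.96 in mutant 2 and all mutants above all controls. Elovl6, the elongase gene acting on palmitate, read 8.55, 8.34 and 8.78 in the controls and 7.79, 8.99 and 8.91 in the mutants, and mutant 1 was the lowest animal. Scd2, the desaturase gene closest to Scd1, read 8.52, 7.70 and 8.88 in the controls and 8.56, 8.64 and 9.13 in the mutants, highest in mutant 3 and lowest in control 2. It differed by 0.41 ± 0.29 SE, and by 0.075 without control 2. In that order of animals Scd2 went with the sterol enzymes and not with Scd1. Mutant 2 exceeded the mean of the other arrays by over 1.5-fold in 5 of 7 fatty acid genes, against 2.17% of all genes, and was the highest array in 6 of 7, against 16.4%. Among the sterol enzymes mutant 2 did so in 0 of 18 and was highest in 1, Ebp.

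In other genes of lipid synthesis the high values of mutant 2 were seen again in part. Of 22 measured genes of other fatty acid and glycerolipid synthesis, 0 passed the test, 11 stood above their control mean and 11 below. Mutant 2 was over 1.5-fold above the mean of the others in 6 of them, among them Thrsp, a lipogenic nuclear protein gene, which read 5.77, 7.25 and 8.03 in controls and 6.62, 9.90 and 5.32 in mutants. The malic enzyme gene Me1, which supplies NADPH, read 6.47, 7.01 and 8.05 in the controls and 6.46, 8.98 and 6.82 in the mutants. The smallest p in this list belonged to Lpin3, Fads2 and Dgat1. Fads2, the delta-6 desaturase gene, differed by -0.71 ± 0.14 SE (adjusted p = 0.0913), Lpin3, a second lipin gene, by -0.61 ± 0.12 SE (adjusted p = 0.0907) and Dgat1, whose enzyme completes triglyceride, by -0.44 ± 0.09 SE (adjusted p = 0.105). In these 3 genes all mutants lay below all controls, and mutant 2 was not the extreme animal in any of them.

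Of 12 measured targets of the oxysterol receptor LXR and genes of sterol handling, 0 passed. In this list 6 genes stood above their control mean and 6 below, with a median change of -0.03. Abca1, which exports cholesterol to apolipoprotein A-I, read 9.04, 8.83 and 8.85 in the controls and 8.09, 8.24 and 7.34 in the mutants and differed by -1.02 ± 0.22 SE (adjusted p = 0.113). Abcg8, part of the sterol exporter of the brush border, read 7.95, 8.30 and 8.02 in the controls and 7.65, 7.54 and 6.64 in the mutants and differed by -0.81 ± 0.25 SE (adjusted p = 0.253). Abcg1 differed by 0.49 ± 0.14 SE (adjusted p = 0.210), but it was dim, from 4.63 to 5.44, and under the median over all genes on every array. In Abca1 and Abcg8 the mutants lay wholly below the controls and mutant 3, the animal with the highest sterol enzymes, was the lowest. Abcg5, on the same list, differed by -0.08 ± 0.15 SE (adjusted p = 0.891). Its groups overlapped, though mutant 3 was the lowest there too. Of 12 other measured genes of sterol and isoprenoid synthesis, which hold the SREBP proteases Mbtps1 and Mbtps2 and the coenzyme Q branch, 0 passed, and mutant 3 exceeded the mean of the others by over 1.5-fold in 0. The largest difference there was that of Pdss2, a gene of the coenzyme Q side chain, at -0.40 ± 0.10 SE (adjusted p = 0.157). Erlin2, which binds SREBP-Scap complexes, differed by -0.31 ± 0.11 SE and the ubiquitin ligase gene Syvn1 by 0.34 ± 0.19 SE.

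Mutant 3 also stood apart in some genes of the clock, in both directions. Lists of clock and fasting genes were included because lipid synthesis follows feeding and the time of day. Among 16 clock genes 0 passed, 6 stood above their control mean and 10 below. Mutant 3 was the highest array in 4 of the 16, against 19.2% of all genes. It was over 1.5-fold above the mean of the other arrays in 3, against 3.52% of all genes. One of these, Arntl, read 6.42, 6.68 and 6.38 in the controls and 6.52, 6.93 and 7.21 in the mutants. The output gene Dbp read 7.84, 7.19 and 8.67 in the controls and 7.42, 6.38 and 5.08 in the mutants, Tef 8.42, 8.13 and 8.53 in the controls and 7.61, 7.32 and 6.51 in the mutants and Nr1d1 7.76, 7.39 and 7.70 in the controls and 7.02, 6.96 and 5.98 in the mutants, and mutant 3 was the lowest animal in each. Nr1d2 had the smallest p of this list, with a difference of -0.94 ± 0.16 SE (adjusted p = 0.0598). Tef and Nr1d1 differed by -1.22 ± 0.26 SE and -0.97 ± 0.27 SE. Among 11 measured fasting and PPAR responsive genes 0 passed. Their mean was 7.27, 7.57 and 7.38 in the controls and 7.63, 7.72 and 7.26 in the mutants. Mutant 3 thus lay below the other mutants but close to control 1. Angptl4, which inhibits lipoprotein lipase, differed by 1.55 ± 0.31 SE (adjusted p = 0.0865), the acyl-CoA thioesterase gene Acot1 by 0.84 ± 0.24 SE and the peroxisomal gene Ehhadh by -0.57 ± 0.18 SE. Pdk4, a kinase gene that responds to fasting, read 6.67, 7.63 and 7.32 in the controls and 8.15, 8.27 and 6.91 in the mutants, and mutant 3 lay among the controls. Sex, Hnf4a signal, some clock genes and most sterol enzymes set mutant 3 apart from mutants 1 and 2, and their part in the sterol pattern was not tested.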

How the data were processed

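RNA of 6 jejunum samples, 1 per animal, was measured on Affymetrix arrays. The authors' deposited values were taken as log2 signals, since they lay between 1.80 and 14.5, and were not normalised again. Their background correction, summarisation and normalisation by the authors were not given in the sources used here. Of 45101 probe sets, 64 controls were left out, and platform annotation gave 34945 of the rest 1 gene symbol, 932 several and 9160 none. The Entrez identifiers of 34741 were found in RefSeq (GRCm38.p6), which changed 0 symbols and supplied the promoter windows. Each gene was represented by its probe set with the highest mean. Mutants and controls were compared over 18193 genes with limma 3.58.1 (lmFit and eBayes, R 4.3.3), with Benjamini-Hochberg adjustment over all genes, after the code was tested on simulated data. With 3 arrays per group, the number of arrays limits the precision. List means per array have no test.

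The members and lists were chosen with earlier results of these data known. All members are named, with Hnf4a, up to 3 genes of smallest p per related list and the defining tissue markers. Other genes (Thrsp, Me1, Dbp, Arntl, Pdk4, Abcg5), the sex-linked genes and the counts per array were chosen after their values were seen. Alternatives concerned normalisation, dim signals, probe set choice, the variance model, array weights, a replicate block and left-out arrays.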

Additional observations from a re-analysis of the deposited data

How the results depend on the processing

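The count of members past the test stayed at 0 under each alternative to the fit that was run, with a lowest adjusted p of 0.0642, and was 2 at an unadjusted p under 0.05. Of 496 values of members under 16 alternatives, 467 kept their direction and 29 did not. Of these 29, 11 arose without mutant 3, 6 without mutant 2 and 4 without control 2. The changes that turned were Nsdhl with array weights (-0.013), Hsd17b7 with the most variable probe set (-0.10), Ggps1 with the mean of probe sets (-0.054) and the most variable one (-0.20), Scap with the mean of probe sets (0.055), and Elovl6 with the mean of probe sets (-0.0049) and without both control 3 and mutant 2 (-0.093). With 1 array left out, the changes of members that turned ran from -0.20 to 0.60 for Hmgcs1, -0.053 to 0.29 for Mvd, -0.17 to 0.46 for Idi1, -0.11 to 0.53 for Fdps, -0.091 to 0.57 for Lss, -0.087 to 0.64 for Cyp51, -0.29 to 0.028 for Sc5d, -0.12 to 0.12 for Nsdhl, -0.15 to 0.32 for Hsd17b7, -0.22 to 0.35 for Msmo1, -0.083 to 0.24 for Insig1, -0.18 to 0.00029 for Scap, -0.14 to 0.85 for Fasn, -0.14 to 0.66 for Acaca, -0.059 to 0.49 for Acly, -0.30 to 1.41 for Scd1 and -0.21 to 0.39 for Elovl6. The regulators' difference was 0.12 with the median over members. Over all genes the 96 calls became 20 at an adjusted p under 0.01, 2 with a floor at the 20th percentile, 150 with array weights, 4 without control 3 and mutant 2, and 22 to 96 with 1 array left out (24 without control 2, 22 without control 3, 41 without mutant 2). The cause was not tested. With the replicate number as a block there were 62. Deviations of same-numbered animals correlated at 0.07, 0.07 and -0.02, and those of differently numbered animals between -0.17 and 0.13. These values gave no sign of pairing by number. With 3 animals per group they cannot exclude it.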
